A study of Mus musculus with 10 samples.

Results

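Ski, Skil, Tgif1 and Tgif2 encode repressors of SMAD-dependent transcription, and the regions bound by SMAD2/3 and by the E protein HEB at these 4 genes are described here in mouse embryonic stem cells (ESCs) and in endoderm derived from them. The members were the regions that the authors assigned to any of the 4 gene names, 58 of the 78263 regions in 6 lists. Ski had 28 of them, Tgif1 15, Tgif2 8 and Skil 7. Regions of different lists that overlapped by at least 1 bp were joined into 1 site, which gave 14 sites, 8 at Ski, 3 at Tgif1, 2 at Tgif2 and 1 at Skil. At the Skil site, 2 further regions with no listed gene joined the assigned ones. The members were chosen by gene name and not by a measured value.

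All groups came from the CGR8 mouse ESC line, grown without feeders in medium with serum and LIF. Endoderm SMAD2/3 and Endoderm HEB are ChIP-seq libraries from cells moved to serum-free medium, given 100 ng/ml Activin A from day 2 and harvested at day 4. Activin A is a TGF-beta family ligand that signals through SMAD2 and SMAD3. Endoderm+SB HEB is the library from such cells that also received 10 µM SB431542, an inhibitor of the activin, Nodal and TGF-beta type I receptor kinases, for 48 hours from day 2, as the labels read. ESC+SB HEB comes from ESCs given 10 µM SB431542 for 24 hours, and ESC SMAD2/3 and ESC HEB from ESCs without it. SMAD2/3 was not profiled with SB431542. Each group had 1 ChIP library, so the spread between cultures was not measured, no test was possible and each difference below compares 2 libraries. The labels name no sort of the differentiated cells, and the lists hold no expression values, so the cell state could not be checked by marker levels.

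SKI and SNON, the product of Skil, are related corepressors that bind activated SMAD complexes on DNA and recruit histone deacetylases through NCOR. TGIF1 and TGIF2 are homeodomain proteins of the TALE class that bind SMAD2 and SMAD3 and recruit corepressors with histone deacetylases. Skil is a direct target of TGF-beta and activin signalling and takes part in its negative feedback, and Nodal signalling through the same SMADs patterns the early embryo and drives endoderm formation. HEB, encoded by Tcf12, is a basic helix-loop-helix protein that binds E-boxes as a dimer.

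The promoter windows of Tgif1 and Tgif2 are shown because summits of ChIP signal lay in or just past them. They are RefSeq sequences of build GRCm38.p6, 250 bases before to 50 after a transcription start, read 5′ to 3′ on the gene's strand. RefSeq has 5 starts of Tgif1, and not all of their windows are shown. The Tgif1 windows shown are chr17:70853483-70853782 (minus strand, most upstream start) and chr17:70851161-70851460 (minus strand, the start 2322 bp further downstream). The Tgif2 window is chr2:156839757-156840056 (plus strand). Capitals mark the E-box CANNTG and the SMAD motif CAGAC, on either strand.
Tgif1 most upstream start: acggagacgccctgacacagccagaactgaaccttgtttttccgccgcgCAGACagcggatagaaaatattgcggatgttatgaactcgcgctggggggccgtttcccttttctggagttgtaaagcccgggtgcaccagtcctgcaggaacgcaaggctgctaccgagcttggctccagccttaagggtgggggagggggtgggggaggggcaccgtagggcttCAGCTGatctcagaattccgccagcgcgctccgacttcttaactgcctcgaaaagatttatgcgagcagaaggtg
Tgif1 start 2322 bp downstream: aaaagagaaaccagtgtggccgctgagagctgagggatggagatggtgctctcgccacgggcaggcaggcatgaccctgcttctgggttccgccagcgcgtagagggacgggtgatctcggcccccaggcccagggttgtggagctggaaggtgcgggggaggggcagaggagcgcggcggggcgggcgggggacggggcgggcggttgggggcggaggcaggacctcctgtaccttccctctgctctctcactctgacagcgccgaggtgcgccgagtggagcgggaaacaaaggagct
Tgif2 start: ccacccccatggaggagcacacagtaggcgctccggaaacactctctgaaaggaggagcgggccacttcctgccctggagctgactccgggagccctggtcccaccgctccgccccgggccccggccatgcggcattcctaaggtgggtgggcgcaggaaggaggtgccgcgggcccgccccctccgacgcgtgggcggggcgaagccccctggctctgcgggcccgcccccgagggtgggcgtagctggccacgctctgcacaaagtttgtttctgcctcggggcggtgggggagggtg
The first Tgif1 window holds CAGCTG at position -25 and CAGAC at -201, counted from the start at 0, and has a GC content of 58.0%. The other Tgif1 window shown and the Tgif2 window hold neither CANNTG nor CAGAC. Their GC contents are 68.7% and 72.3%, against a median of 52.7% over all 32851 RefSeq promoter windows. Of all windows, 72.3% hold CANNTG, 16.3% hold CAGCTG, which is a case of CANNTG, and 49.6% hold CAGAC. The TGIF motif TGACA, held by 45.4% of all windows, is at -238 in the first Tgif1 window and at 5 in the other. The GC-rich SMAD motif GGCGC, held by 36.9% of all windows, is at -224 and -100 in the Tgif2 window and, as GCGCC on the shown strand, at 10 and 20 in the second Tgif1 window. None of the 3 windows holds CAGGTG (20.2% of all windows), the SMAD palindrome GTCTAGAC (0.213%) or the FOXH1 motif AATNCACA (3.6%). Of the Tgif1 windows not shown, that of the start 1798 bp downstream of the first holds 4 CANNTG and 2 CAGAC matches. That at 3742 bp holds 1 of each, and that at 6755 bp holds 2 CANNTG and no CAGAC. Motifs were searched on both strands, and a match is a description of the letters only. Of the 4 genes, 3 matched an entry of the promoter table and Skil did not.

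The files are in build mm9 and the windows in GRCm38.p6, and no coordinate was converted. The deposited distances from regions to genes imply 3 5′ ends of Tgif1, the others 1798 and 3742 bp downstream of the first, and RefSeq has starts at these same spacings. Distances were therefore taken as equal in both builds. Identity of the mm9 sequence was not checked. On this scale, the HEB summits at the first Tgif1 start lay at -15 bp in Endoderm+SB, -12 bp in ESC+SB and 8 bp in ESC. At the start 2322 bp downstream, the summits lay at 14 bp in Endoderm HEB, 10 bp in ESC+SB HEB and 7 bp in ESC HEB, and at -137 bp in Endoderm SMAD2/3 and -131 bp in Endoderm+SB HEB. Regions of Endoderm SMAD2/3, Endoderm HEB and ESC HEB also overlapped the window of the start at 1798 bp. Their summits lay 387, 538 and 531 bp downstream of that start. At Tgif2, whose RefSeq start was placed 70 bp upstream of the deposited 5′ end from the spacing to 11 neighbouring genes, the summits lay at 59 bp in Endoderm SMAD2/3, 10 bp in Endoderm+SB HEB, 24 bp in Endoderm HEB, 64 bp in ESC+SB HEB and 74 bp in ESC HEB. The window ends 50 bases after the start, so 3 of these 5 summits, the SMAD2/3 one included, lay just outside it.

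Each region carries a count of ChIP tags, a count of input tags and the height of its ChIP peak. Tag enrichment is the authors' ratio of ChIP to input tags, with the input count raised to a floor in some regions. The floor also acted on the wide Skil region in Endoderm SMAD2/3. That region held 42 input tags over 2649 bp, against list medians of 19 tags and 546 bp. The raw count therefore does not show whether its input was dense or sparse for its width. Neither enrichment nor height has a stated scaling for sequencing depth. Sequencing depth per library is not known from the lists, which hold between 933126 (ESC SMAD2/3) and 5051930 (Endoderm HEB) ChIP tags. Their medians of enrichment run between 6.36 (ESC+SB HEB) and 12.7 (Endoderm HEB). The list lengths were 11033 for Endoderm SMAD2/3, 4111 for ESC SMAD2/3, 10147 for Endoderm+SB HEB, 18981 for Endoderm HEB, 16769 for ESC+SB HEB and 17222 for ESC HEB. SMAD2/3 and HEB of the same cells share an input. Intervals given with the values of single regions are exact 95% intervals of the tag ratio. Those of log2 differences are approximate 95% intervals from the tag counts. Both cover counting error only.

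Regions were listed at all 4 genes in 5 lists and at 3 genes in ESC SMAD2/3, which had none at Tgif2. Of the 10730 gene symbols in any list, 48.9% had an Endoderm SMAD2/3 region, 15.6% an ESC SMAD2/3 region, 48.8% an Endoderm+SB HEB region, 53.0% an Endoderm HEB region, 63.6% an ESC+SB HEB region and 51.3% an ESC HEB region. In endoderm, 6 of the 14 sites carried both SMAD2/3 and HEB, 3 SMAD2/3 alone, 2 HEB alone and 3 neither. In ESCs, 9 sites carried both, 4 HEB alone, none SMAD2/3 alone and 1 neither. Such site states were not counted over the whole lists. Of all SMAD2/3 regions, 60.5% in endoderm and 83.9% in ESCs overlapped HEB of the same cells. Of all HEB regions, 35.3% and 19.8% overlapped SMAD2/3. The 4 sites with HEB alone in ESCs were all at Tgif1 and Tgif2, and 3 of them carried SMAD2/3 in endoderm. At 1 of these 3, Tgif1 at 0.0 kb, the ESC HEB and Endoderm SMAD2/3 regions share only 1 bp. Their summits lay apart, 8 and 648 bp downstream of the 5′ end. The 3 sites with neither in endoderm were all at Ski.

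**Figure D1:**
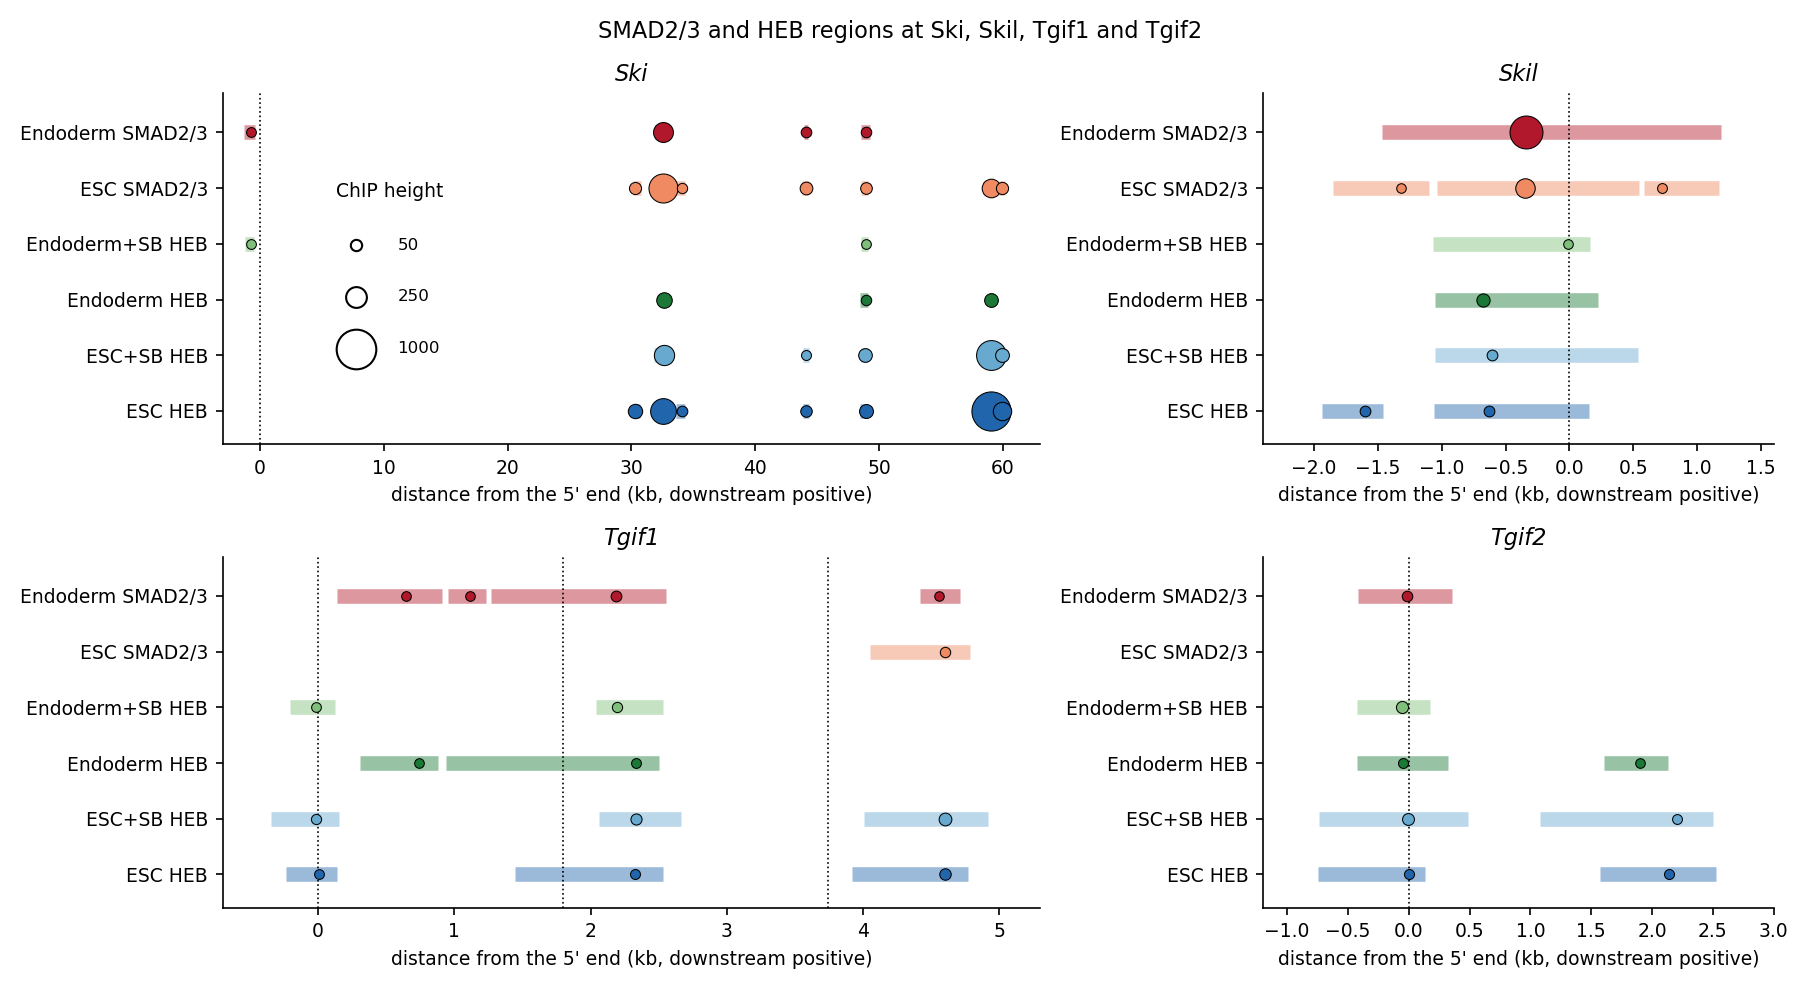
Regions of the 6 lists (rows) at Ski, Skil, Tgif1 and Tgif2 against distance from the 5′ end in kb, downstream positive; bars span the regions, circles mark their summits with area growing with ChIP height, and dotted lines mark the 5′ ends that the deposited distances imply. The tall regions lie at 32.6 and 59.0 kb of Ski and at the 5′ end of Skil, where the Endoderm SMAD2/3 circle (height 680.4) is larger than that of any HEB list, and Tgif2 has no ESC SMAD2/3 bar.

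Skil, the feedback corepressor SNON, had 1 site, at its 5′ end on chromosome 3, and it was listed in all 6 lists. The Endoderm SMAD2/3 region (30992519 to 30995167) held 4958 ChIP and 42 input tags, an enrichment of 96.2 and a height of 680.4. The ESC SMAD2/3 region (30992945 to 30994529) held 1258 and 39 tags, an enrichment of 32.3 (95% interval 23.5 to 45.6) and a height of 216. Smaller ESC SMAD2/3 regions lay on both sides of it, at 30994567 to 30995153 with an enrichment of 5.96 and, with no gene listed, at 30992131 to 30992882 with 5.0, and the Endoderm SMAD2/3 region overlapped all 3, the last of them in part. The SMAD2/3 region of Skil ranked at place 6 of 11033 by enrichment in endoderm and at place 37 of 4111 in ESCs. By height the places were 16 and 37.

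HEB at the Skil site was lower than SMAD2/3 in each cell state. Endoderm+SB HEB held 317 ChIP and 26 input tags, an enrichment of 12.2 and a height of 26.3. Endoderm HEB held 766 and 13 tags, an enrichment of 30.6 and a height of 81.2. ESC+SB HEB had an enrichment of 14.6 from 495 and 34 tags, with a height of 41.6, and ESC HEB 12.8 from 396 and 31 tags, with a height of 42.3. Endoderm HEB stood above the other 3 HEB libraries on both measures. The floor acted on the Endoderm SMAD2/3 and Endoderm HEB values, whose plain tag ratios were 118 (87.2 to 164) and 58.9 (34.3 to 111). A further ESC HEB region with no gene listed (30992043 to 30992520, enrichment 7.0) joined the site, and overlaps the ESC SMAD2/3 region that likewise has no gene listed.

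The Skil summits of the 2 factors stood apart. Relative to the 5′ end at 30993983, the SMAD2/3 summits lay 342 bp upstream in endoderm and 351 bp upstream in ESCs, 9 bp from each other. The HEB summits lay 677 bp upstream in Endoderm HEB, 604 bp in ESC+SB HEB and 626 bp in ESC HEB, and the Endoderm+SB HEB summit lay 8 bp upstream. The SMAD2/3 and HEB summits were thus 335 bp apart in endoderm, further than 96.0% of 6609 matched pairs, and 275 bp apart in ESCs, further than 95% of 3391 pairs. The Endoderm+SB HEB summit was 669 bp from that of Endoderm HEB, further than 98.5% of 4753 matched pairs. With a height of 26.3, near the list's lowest of 25.0, the position of that summit rests on a low peak.

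Ski, the founding member of the family, had 8 sites on chromosome 4, 7 of them inside the gene between 30.3 and 60.0 kb downstream of its 5′ end (154596644, minus strand) and 1 site 0.7 kb upstream of it. All 7 inner sites carried both factors in ESCs. In endoderm SMAD2/3 was listed at 3 of the inner sites (32.6, 44.1 and 48.9 kb) and HEB at 3 (32.6, 48.9 and 59.0 kb). The exon and intron structure in mm9 was not used here.

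The site at 32.6 kb was the tallest SMAD2/3 site of Ski. Endoderm SMAD2/3 (154563517 to 154564775) held 1045 ChIP and 37 input tags, an enrichment of 28.2 (20.4 to 40.3) and a height of 226. ESC SMAD2/3 (154563504 to 154564764) held 2388 and 82 tags, an enrichment of 29.1 (23.4 to 36.8) and a height of 521. Enrichment was nearly equal between the states while the endoderm height was 0.434 of that in ESCs. HEB had an enrichment of 32.1 in Endoderm, 13.0 in ESC+SB and 25.5 in ESC, with heights of 124.5, 235.5 and 401, and was not listed in Endoderm+SB.

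The site at 59.0 kb was the tallest HEB site of the 4 genes. ESC SMAD2/3 had an enrichment of 11.1 (8.57 to 14.6) there, from 699 ChIP and 63 input tags, and a height of 194. Endoderm HEB (154537371 to 154537747) held 267 and 9 tags, with an enrichment of 29.7 (15.4 to 65.6) and a height of 89.2. ESC+SB HEB held 1526 and 72 tags, with an enrichment of 21.2 (16.7 to 27.2) and a height of 552. ESC HEB (154537212 to 154538570) held 2867 and 74 tags, with an enrichment of 38.7 (30.8 to 49.5) and a height of 976, place 12 of 17222 by height. Neither Endoderm SMAD2/3 nor Endoderm+SB HEB was listed. The Endoderm HEB region was 377 bp wide, against 1359 bp in ESC HEB, and its summit was at the same base.

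Next to it, the site at 60.0 kb was listed in the ESC lists only. Its enrichment was 13.7 in ESC SMAD2/3, 11.8 in ESC+SB HEB and 29.96 in ESC HEB, from 273, 271 and 719 ChIP tags. The sites at 34.0 and 30.3 kb were listed in ESC SMAD2/3 (7.61 and 10.5) and ESC HEB (11.9 and 12.6) and in no other list. At 44.1 kb, SMAD2/3 had 12.8 in Endoderm and 10.8 in ESC, and HEB 3.73 in ESC+SB and 12.1 in ESC. The site at 48.9 kb was the 1 Ski site in all 6 lists, with enrichments of 5.91 in Endoderm SMAD2/3, 5.98 in ESC SMAD2/3, 5.79 in Endoderm+SB HEB, 8.67 in Endoderm HEB, 6.59 in ESC+SB HEB and 9.63 in ESC HEB. By height it was above 89.75% of the ESC+SB HEB list (88.5) and 89.8% of the ESC HEB list (93.2), and above 20.3% of Endoderm+SB HEB (27.9). The upstream site at -0.7 kb was listed in Endoderm SMAD2/3 (9.19, height 29.0) and Endoderm+SB HEB (8.14, height 28.9) only, both close to the lowest height of their lists, and none of the 6 lists covered the 5′ end of Ski itself.

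**Figure D2:**
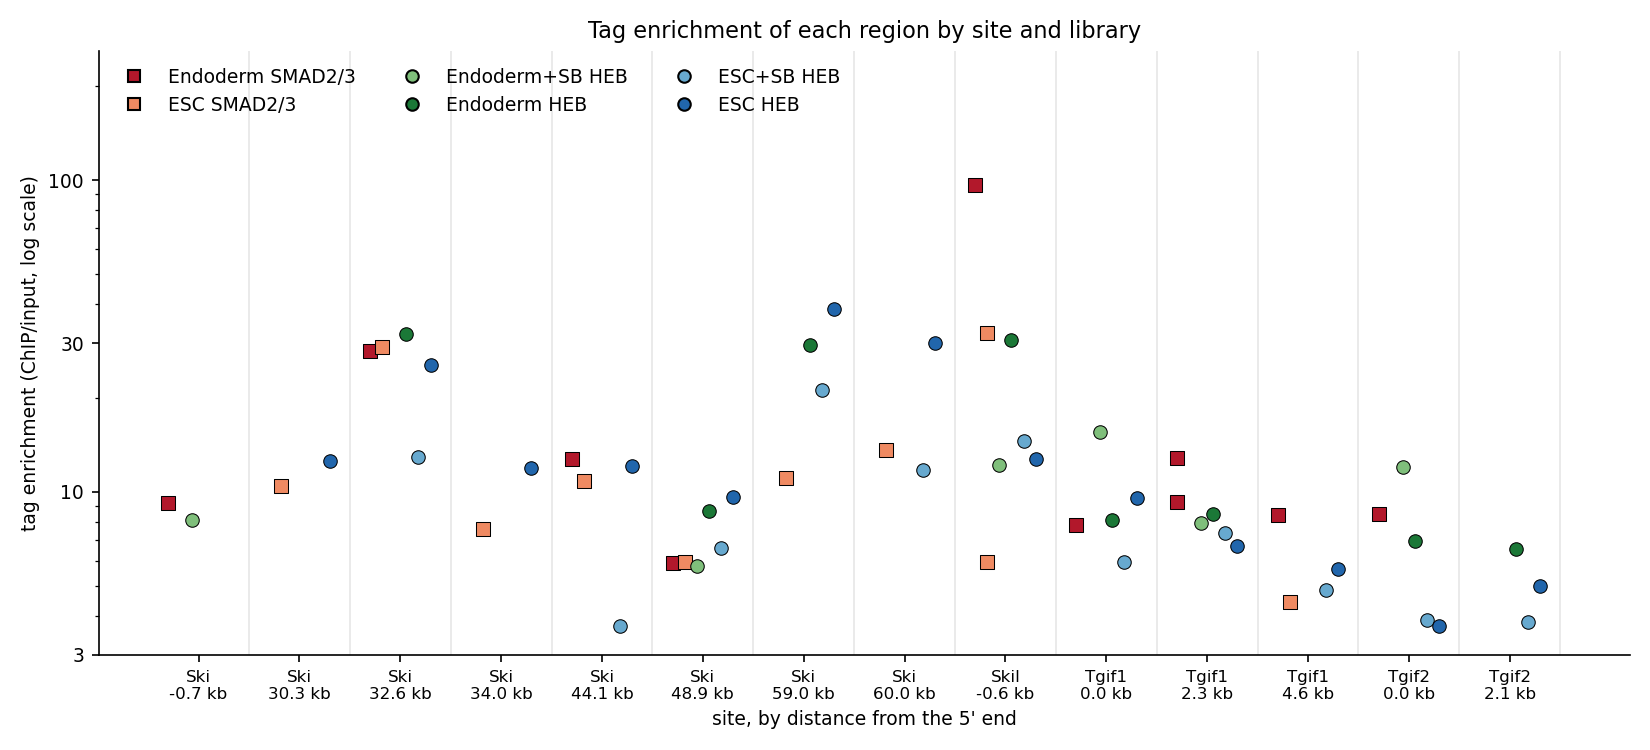
Deposited tag enrichment (ChIP over input tags, log scale) of each assigned region, by site from left to right and coloured by library; squares are SMAD2/3 and circles HEB. Skil in Endoderm SMAD2/3 (96.2) lies above every other region, and the Tgif1 and Tgif2 regions lie at or below 15.6.

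Tgif1 and Tgif2, the TALE homeodomain corepressors, had enrichments of at most 15.6. By height some stood well up in their lists, among them Tgif2 at its 5′ end in Endoderm+SB HEB (61.2, above 85.3% of the list) and Tgif1 at 4.6 kb in ESC+SB HEB (72.1, above 84.4%). Tgif1 had 3 sites on chromosome 17, at 0.0, 2.3 and 4.6 kb from the most upstream 5′ end (71202872, minus strand), with enrichments between 4.43 and 15.6 and heights between 25.2 and 72.1. ESC SMAD2/3 was listed only at 4.6 kb, where its enrichment was 4.43 (3.13 to 6.40) from 177 and 40 tags. Endoderm SMAD2/3 was listed at all 3 sites, with 8.44 at 4.6 kb, 9.30 and 12.8 in 2 adjoining regions at 2.3 kb and 7.85 at 0.0 kb. The second of these regions held 69 ChIP and 2 input tags, so its ratio is set by the floor.

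HEB at Tgif1 was listed at 4.6 kb in ESC+SB (4.85, height 72.1) and ESC (5.65, height 52.1) and in neither endoderm list. At 2.3 kb its enrichment was 7.95 in Endoderm+SB, 8.53 in Endoderm, 7.36 in ESC+SB and 6.69 in ESC, with no wide gap between the 4 libraries. At 0.0 kb it was 15.6 in Endoderm+SB, where the floor acted on 3 input tags, 8.15 in Endoderm, 5.95 in ESC+SB and 9.54 in ESC. The site at 0.0 kb holds 2 separate positions. The Endoderm SMAD2/3 and Endoderm HEB summits lay 648 and 744 bp downstream of the 5′ end, and the HEB summits of the other 3 libraries within 15 bp of it. The ESC HEB region (71202733 to 71203109) shares exactly 1 bp with the Endoderm SMAD2/3 region (71201964 to 71202733).

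Tgif2 had 2 sites on chromosome 2, at its 5′ end (156665813, plus strand) and 2.1 kb downstream, with enrichments of 3.70 to 12. At the 5′ end the values were 8.47 (5.79 to 12.8) in Endoderm SMAD2/3, 12 (7.68 to 19.7) in Endoderm+SB HEB, 6.97 (4.74 to 10.6) in Endoderm HEB, 3.88 (3.05 to 4.99) in ESC+SB HEB and 3.70 (2.73 to 5.10) in ESC HEB. The input tags there numbered 21 to 30 in the endoderm lists, against 85 in ESC+SB HEB and 54 in ESC HEB, and region widths differed too. The site at 2.1 kb was listed for HEB in Endoderm (6.56), ESC+SB (3.83) and ESC (4.98), with heights of 27.0 to 31.3.

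The comparison of SMAD2/3 with HEB in the same cells asks where the factors lie together. In endoderm, 7 of the 10 SMAD2/3 regions of the 4 genes overlapped a HEB region, against 60.5% of all Endoderm SMAD2/3 regions, and 6 of the 8 HEB regions overlapped SMAD2/3, against 35.3%. In ESCs, 9 of 10 SMAD2/3 regions overlapped HEB, against 83.9%, and 9 of 13 HEB regions overlapped SMAD2/3, against 19.8% of the longer HEB list. The SMAD2/3 shares lie near those of the whole lists. Of 6 matched pairs in endoderm, Skil alone had SMAD2/3 at least 2-fold above HEB in enrichment (3.14-fold, a log2 difference of 1.65), which 3.22% of 6609 pairs reached. Without the floor that log2 difference was 1.0. In ESCs, Skil again was the 1 pair of 9 at or above 2-fold (2.53-fold, log2 1.34), against 1.71% of 3391 pairs. By height the Skil ratios were 8.38 in endoderm and 5.10 in ESCs, above 99.9% and 99.8% of the pairs.

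At 2 of the 7 Ski sites in ESCs, SMAD2/3 was at least 2-fold below HEB. It stood at 0.456 of HEB in enrichment at 60.0 kb (log2 -1.13) and at 0.286 at 59.0 kb (log2 -1.80), and 27.6% of the 3391 ESC pairs were at least 2-fold lower. The sites at 48.9, 44.1, 34.0 and 30.3 kb had log2 differences of -0.69, -0.16, -0.65 and -0.26, and by height SMAD2/3 was 1.35-fold HEB at 44.1 kb. In ChIP tags per kb as a share of the list's tags, all 9 member pairs in ESCs were positive. That scale divides by 933126 tags for ESC SMAD2/3 and 4810688 for ESC HEB. The differences at the first 2 sites turned round, to 1.29 at 60.0 kb and 0.81 at 59.0 kb. Signs also changed at 48.9 kb (1.72), 44.1 kb (2.33), 34.0 kb (1.805) and 30.3 kb (1.955), and at the Tgif1 4.6 kb site (1.945). In enrichment at 32.6 kb, SMAD2/3 was slightly above HEB in ESCs (log2 0.19) and slightly below it in endoderm (log2 -0.19). The median log2 difference was 0.04 over the 6 member pairs in endoderm and -0.35 over the 9 in ESCs, against -0.25 and -0.61 over all pairs. Summits lay within 100 bp of each other in 4 of 6 member pairs in endoderm, against 87.8% of all pairs, and in 8 of 9 in ESCs, against 85.7%. Those further apart were Skil in both states and the 2.3 kb site of Tgif1 in endoderm, at 151 bp.

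**Figure D3:**
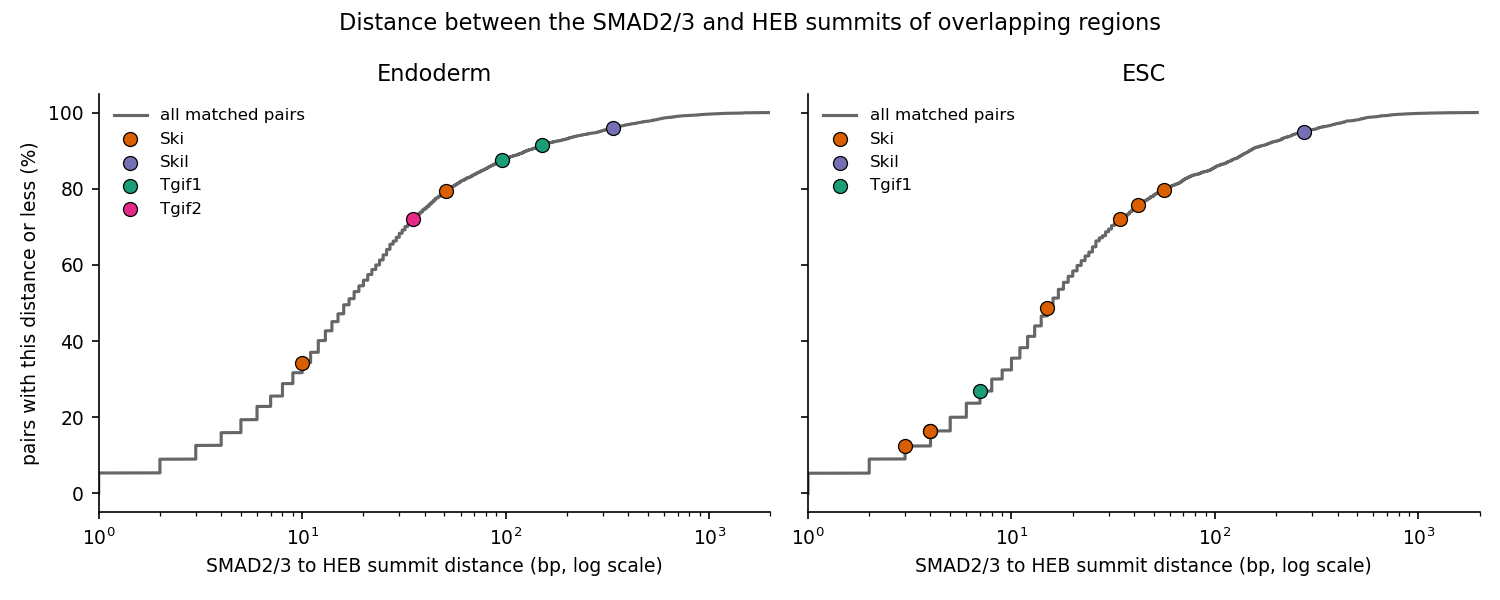
Share of matched SMAD2/3 and HEB pairs (%, vertical axis) whose summits lie within a given distance (bp, log scale) in endoderm and in ESCs; the line is all pairs and the points are the pairs at the 4 genes. The Skil points, at 335 and 275 bp, sit at the upper end of the line in both states, and the Ski points lie at or below 56 bp.

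The second comparison sets endoderm against ESCs. Of the 10 Endoderm SMAD2/3 regions, 5 overlapped an ESC SMAD2/3 region, against 14.2% of all, and 6 of the 10 ESC regions overlapped an endoderm one, against 38.7%. Skil was the 1 of 5 matched SMAD2/3 pairs at least 2-fold higher in endoderm (2.98-fold by enrichment, log2 1.58, and 3.16-fold by height), and 31.7% of 1557 pairs were at least 2-fold higher. The Skil difference exceeded 89.1% of pairs. Without the floor its log2 value was 1.87. On the scale of ChIP tags per kb as a share of the list it was -0.24, the list holding 2600741 tags in endoderm and 933126 in ESCs. At the 3 Ski sites the log2 differences of enrichment were -0.04 at 32.6 kb, 0.24 at 44.1 kb and -0.02 at 48.9 kb, under the median of all pairs of 0.70, and by height all 3 were lower in endoderm, at 0.434, 0.556 and 0.696 of the ESC height. All 5 pairs had summits within 100 bp, against 88.5% of all pairs.

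For HEB, 7 of the 8 Endoderm regions overlapped an ESC HEB region, against 29.1% of all, and 7 of 13 ESC HEB regions overlapped an endoderm one, against 32.1%. Skil was again the 1 of 7 pairs at least 2-fold higher in endoderm (2.40-fold, log2 1.26, height 1.92-fold), against 17.6% of 5409 pairs. Without the floor the log2 difference at Skil was 2.21. The 3 Ski pairs had log2 differences in enrichment of -0.39 at 59.0 kb, -0.15 at 48.9 kb and 0.33 at 32.6 kb. By height they stood at 0.0914, 0.40 and 0.31 of ESC HEB, and only 0.333% of all pairs had a lower height ratio than the 59.0 kb site. The Tgif2 5′ site had a log2 difference of 0.91 in enrichment, with heights of 31.4 in Endoderm and 31.5 in ESC. Region widths and input tags differ between the lists at these sites, and their part in the differences was not tested.

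**Figure D4:**
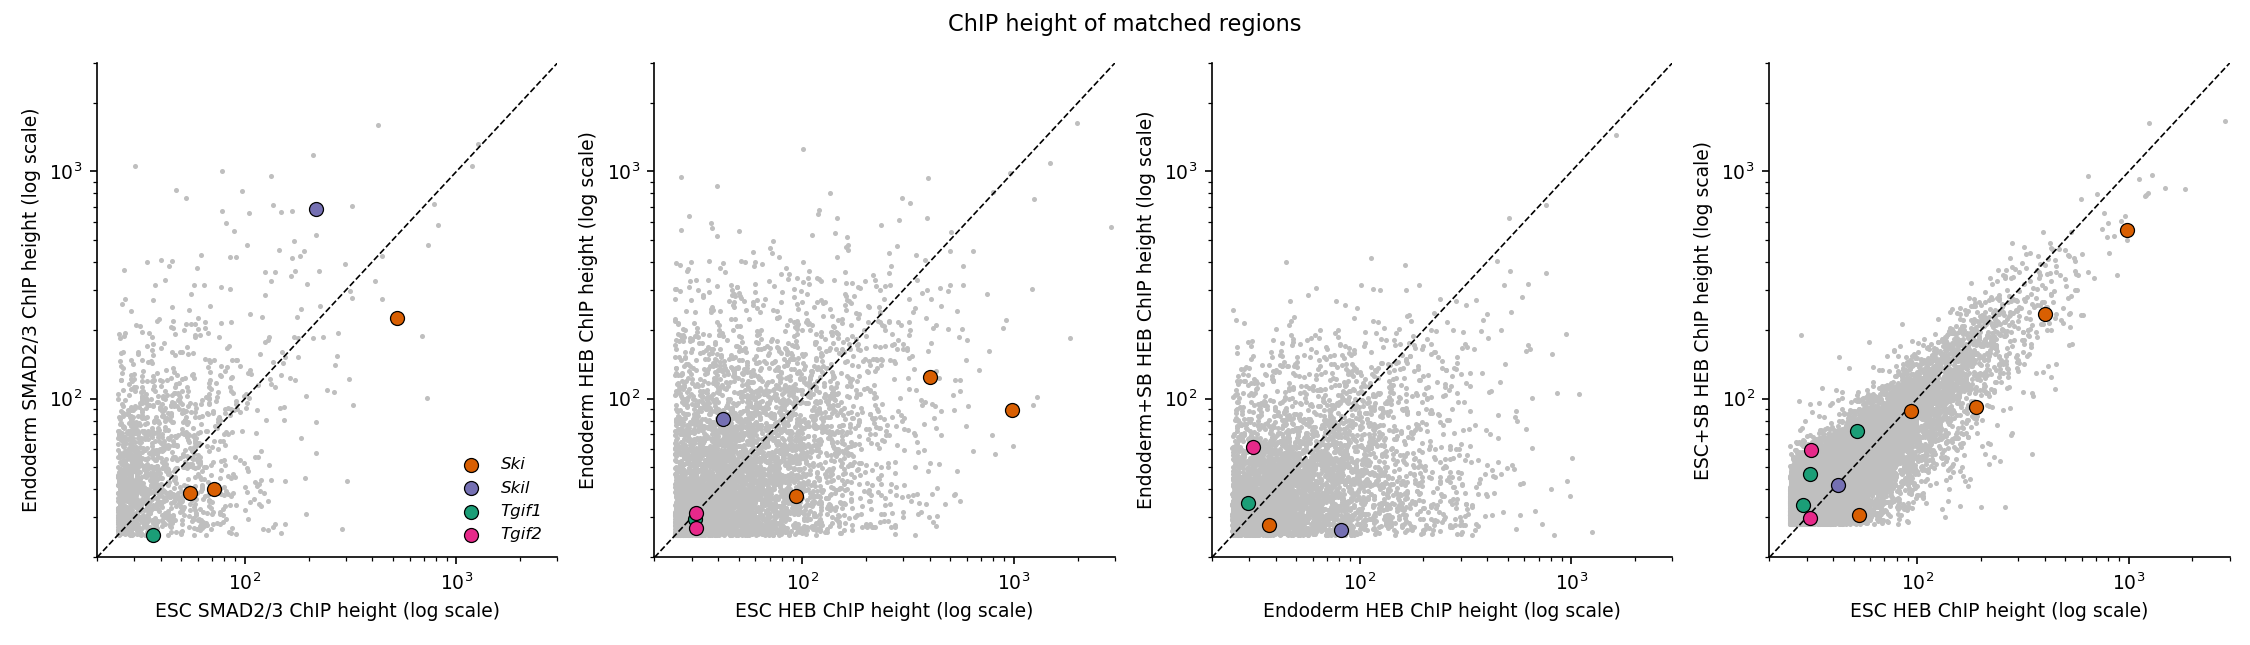
ChIP height of matched regions on log scales in 4 comparisons, Endoderm against ESC for SMAD2/3 and for HEB, and SB431542 against none for HEB in endoderm and in ESCs, with the vertical axis the first of each pair; grey points are all pairs, coloured points the 4 genes and the dashed line equality. Skil lies above the line in both state comparisons, Ski lies below it in every panel, and the endoderm panel with SB431542 spreads more widely than the ESC one.

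The third comparison asks how HEB lay with the type I receptors inhibited. In endoderm, 4 of the 6 Endoderm+SB HEB regions overlapped an Endoderm HEB region, against 47.5% of all, and 4 of the 8 Endoderm HEB regions overlapped one with SB431542, against 25.3%. Skil was 0.398 of the value without SB431542 in enrichment (log2 -1.33, or -2.27 without the floor) and 0.325 of it in height. In ChIP tags per kb as a share of the list, however, the log2 difference was -0.068. By enrichment, 14.7% of 4753 pairs were at least 2-fold lower. The Skil (height 26.3) and Ski 48.9 kb (27.9) regions with SB431542 drop out at a common lowest height of 28 for all lists. The tall Ski regions at 32.6 and 59.0 kb of Endoderm HEB had no region with SB431542. Of the 3 member regions in the top 20% of Endoderm HEB by height, which are these and Skil, 1 was listed with SB431542, against 34.7% of all regions in that top 20%. Tgif2 at its 5′ end was higher with SB431542, at 1.72-fold in enrichment (log2 0.78) and 1.95-fold in height. The 48.9 kb site of Ski (log2 -0.58) and the 2.3 kb site of Tgif1 (log2 -0.10) complete the 4 pairs, whose median was -0.34 against -0.15 over all pairs.

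In ESCs, all 11 ESC+SB HEB regions overlapped ESC HEB, against 76.2% of all, and 11 of 13 ESC HEB regions overlapped one with SB431542, against 74.8%. The 2 without it were the Ski sites at 30.3 and 34.0 kb. All 5 Ski pairs were lower with SB431542, with log2 differences of -1.35 at 60.0 kb, -0.87 at 59.0 kb, -0.55 at 48.9 kb, -1.70 at 44.1 kb and -0.98 at 32.6 kb, against a median of -0.24 over 12603 pairs. Those at 60.0 and 44.1 kb were at least 2-fold lower, which 8.53% of all pairs were, and 0.786% of pairs lay below the 44.1 kb value. By height the 5 Ski ratios ran from 0.482 to 0.949. Skil differed little, with a log2 difference of 0.19 (counting interval -0.54 to 0.92) and a height ratio of 0.983. At Tgif1 the differences were -0.68 at 0.0 kb, 0.14 at 2.3 kb and -0.22 at 4.6 kb, and at Tgif2 0.07 and -0.38, while the height of the Tgif2 5′ site was 1.88-fold that of ESC HEB, above 98.9% of pairs.

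Within 20 kb of the assigned regions lay 36 further regions at 12 sites, 32 of them with no gene listed, 23 near Tgif1, 9 near Skil, 4 near Tgif2 and none near Ski. Near Tgif1, sites 23.4 and 25.3 kb downstream of the most upstream 5′ end were listed in the ESC lists only and were higher in each of these lists than any region assigned to the gene. Their enrichments were 35.2 and 18.2 in ESC SMAD2/3, 14.0 and 16.3 in ESC+SB HEB and 19.7 at both in ESC HEB, with heights of 118 to 231. A site 18.7 kb upstream was listed in all 6 lists, with 11.3 in Endoderm SMAD2/3, 5.77 in the higher of 2 ESC SMAD2/3 regions, 19.4 in Endoderm+SB HEB, 15.3 in Endoderm HEB, 11 in ESC+SB HEB and 8.65 in ESC HEB. The sites near Skil, 3.4 to 12.1 kb upstream, held HEB alone. The site at 5.6 kb had 10.7 in Endoderm and, in the higher of 2 regions each, 10.7 in ESC+SB and 20.8 in ESC, and the site at 7.2 kb had 10.8 in Endoderm. Whether these regions belong to the neighbouring member was not tested.

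**Figure D5:**
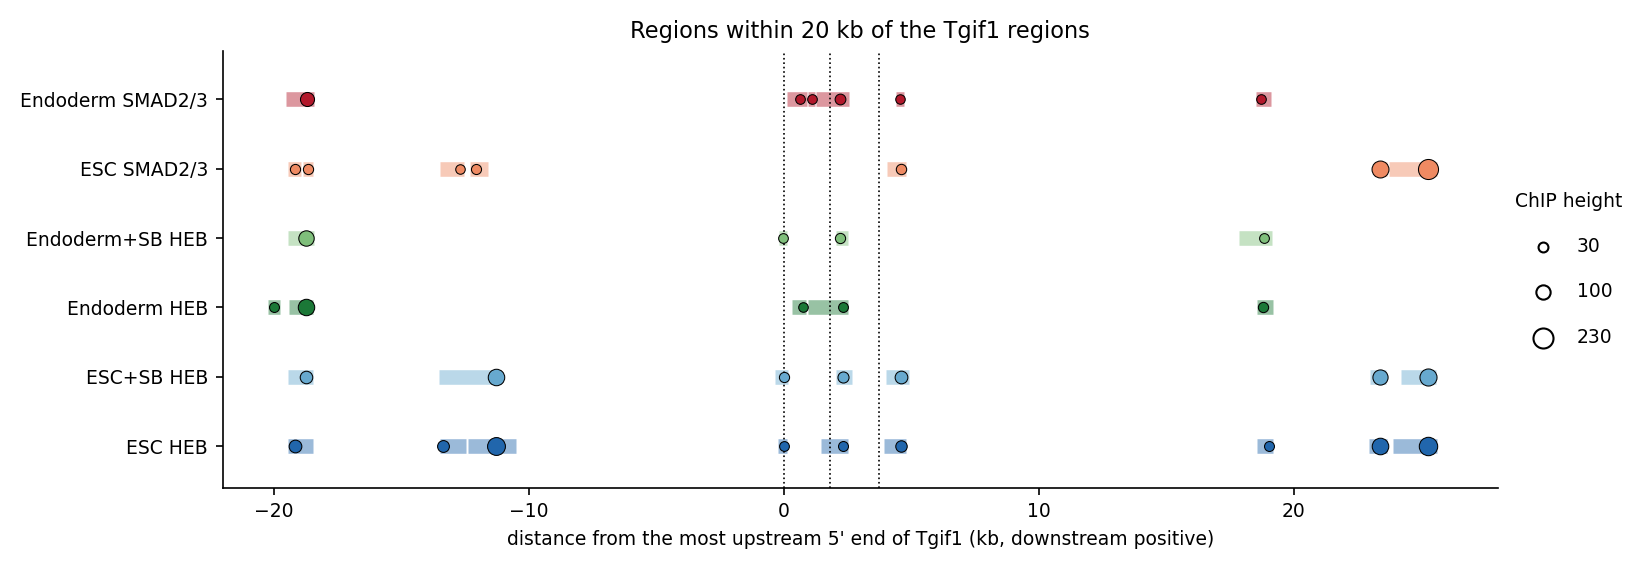
Regions of the 6 lists (rows) within 20 kb of the Tgif1 regions, against distance in kb from the most upstream 5′ end, downstream positive; bars are regions, circles summits with area growing with ChIP height and dotted lines the 5′ ends. The sites at 23.4 and 25.3 kb appear in the 3 ESC rows only, and the site at -18.7 kb appears in all 6 rows.

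A list of 35 genes that encode relatives and partners of these repressors was set beside them. In all, 20 had an Endoderm SMAD2/3 region, 4 an ESC SMAD2/3 region, 21 an Endoderm+SB HEB region, 19 an Endoderm HEB region, 19 an ESC+SB HEB region and 19 an ESC HEB region. The shares were 57.1% in Endoderm SMAD2/3, against 48.9% of all symbols, and 11.4% in ESC SMAD2/3, against 15.6%. They were 60.0% in Endoderm+SB HEB, against 48.8%, and 54.3% in each of Endoderm HEB, ESC+SB HEB and ESC HEB, against 53.0%, 63.6% and 51.3%. None of Skor1, Skor2, Dach1 and Dach2, relatives of Ski and Skil, had a region in any list. Of 8 TALE homeodomain relatives, 6 had a region in Endoderm SMAD2/3, 2 in ESC SMAD2/3, 7 in Endoderm+SB HEB, 6 in Endoderm HEB, 7 in ESC+SB HEB and 7 in ESC HEB. Pknox2 led in Endoderm SMAD2/3 (19.1) and Endoderm HEB (81.8), and Meis2 in ESC+SB HEB (40.8) and ESC HEB (81.7).

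Of 12 corepressor partners, 10 had an Endoderm SMAD2/3 region (83.3%, against 48.9% of all symbols). An ESC SMAD2/3 region was at 2 (16.7%, against 15.6%). HEB was at 7 of them in Endoderm+SB (58.3%, against 48.8%) and 7 in Endoderm (58.3%, against 53.0%). It was at 8 in ESC+SB (66.7%, against 63.6%) and 6 in ESC (50.0%, against 51.3%). Tbl1xr1, a subunit of the NCOR complex, led in Endoderm SMAD2/3 (18.1). Ctbp2, a corepressor bound by TGIF1, led in ESC SMAD2/3 (10.1), Endoderm+SB HEB (19.7), ESC+SB HEB (32.4) and ESC HEB (62.8). Of 8 ubiquitin ligases that act on SKI, SNON or SMADs, 3 had an Endoderm SMAD2/3 region (37.5%) and none an ESC SMAD2/3 region. HEB was at 5 in Endoderm+SB (62.5%), 3 in Endoderm (37.5%), 2 in ESC+SB (25.0%) and 4 in ESC (50.0%). The shares of all symbols are those given for the corepressor partners. Smad3 had regions in 5 lists, with 7.44 in Endoderm SMAD2/3 and 20 in Endoderm HEB, and none in ESC SMAD2/3.

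The genes whose highest enrichments over the 6 lists were most like those of each member were found by the root mean square difference on a log2 scale, with 0 where a gene had no region, among 10726 other genes. Those nearest to Ski were Lama5 (0.40), Cnot2 (0.43) and Baz2b (0.51), against a median of 3.74 over all genes. Nearest to Skil were Atp8a1 (0.45), Eif2c1 (0.63) and Fhod3 (0.65), against a median of 3.85, and Atp8a1 had 87.2 in Endoderm SMAD2/3, 22.8 in ESC SMAD2/3 and 40.9 in Endoderm HEB. Nearest to Tgif1 were Ddr1 (0.31), Bcam (0.34) and Mobkl3 (0.38), against 2.5. Nearest to Tgif2 were Hs6st1 (0.17), Klhl17 (0.18) and Timm44 (0.19), against 2.06. All 3 lacked an ESC SMAD2/3 region, as Tgif2 did, but the measure itself selects for this. Of all symbols, 15.6% had such a region. These are likenesses over 6 libraries and describe the lists only.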

How the data were processed

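ChIP-seq of HEB and SMAD2/3 was analysed for 6 ChIP libraries. The 4 input libraries entered through the lists' background columns only. Per the submitters' processing notes, CASAVA 1.8.2 and build mm9 were used. The aligner, the peak caller, its settings and the annotation used were not given in the sources used here. Per the file headers, each deposited region carries counts of ChIP and background tags, the authors' ratio of the counts (their fold enrichment, with the background floored in some regions) and the signal, the height of the ChIP peak, with no stated scaling. The authors' column headed as −log10 q-value holds values too large for that scale and was not used. Coordinates are printed as deposited, and no header says whether they start at 0 or 1.

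Regions were assigned to genes by the authors' gene names, which cover regions in a gene or within 1 kb of it. Sites were regions joined by an overlap of at least 1 bp, named by the summits' distance from the 5′ end. Matched pairs were regions of 2 lists that overlapped, and differences are log2 ratios of deposited enrichment. Intervals of tag ratios were exact conditional binomial, and those of log2 differences a normal approximation from the tag counts, both at 95%. Python 3.11.15, pandas 2.3.3, numpy 2.4.6, SciPy 1.17.1 and matplotlib 3.10.9 were used. The overlap code was tested on simulated data and checked against bedtools 2.31.1. The members and gene lists were chosen with earlier results of these data known. Named genes were the 4 members, the 3 of highest enrichment per sublist and list, of which the first is printed (1 is not reported here), and the 3 nearest patterns per member. Alternatives were stricter thresholds, equal list lengths, other overlaps, regions within 20 kb, other measures of enrichment and, added after seeing region widths, ChIP height.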

Additional observations from a re-analysis of the deposited data

Results flagged for a closer look

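In enrichment, HEB at the Skil 5′ site had SB431542 differences of opposite sign in the 2 cell states. SB431542 was given for 48 hours with Activin A in endoderm and for 24 hours in ESCs. Cell state and treatment therefore cannot be told apart here. The log2 difference in enrichment was -1.33 between Endoderm+SB and Endoderm, or -2.27 without the floor. Between ESC+SB and ESC it was 0.19 (counting interval -0.54 to 0.92), while by height both were negative (-1.62 and -0.025). At the 2.3 kb site of Tgif1 the corresponding values were -0.10 (counting interval -0.94 to 0.74) in endoderm and 0.14 (-0.61 to 0.885) in ESCs. By height both were positive (0.23 and 0.59). At the 32.6 kb site of Ski, the log2 difference between Endoderm and ESC was -0.044 (-0.61 to 0.53) for SMAD2/3. For HEB it was 0.33 (-0.47 to 1.14), and by height both factors were lower in Endoderm. The counting intervals at these Tgif1 and Ski sites span both signs. Each of these pairs of enrichment values has opposite signs, which the heights do not have, with 1 library per group, and the difference between them was not tested.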

How the results depend on the processing

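With 1 library per group, no replicate could be left out. No paired analysis was possible because each group holds 1 sample and the results come from no test. Of 144 recomputed counts of member genes, regions and overlaps, 81 stayed within 1.5 times the reported count and 63 did not. Of 168 recomputed log2 differences at matched sites, 94 stayed inside their counting interval, 71 moved outside it and 3 turned round. Turning round was counted only where the reported difference was at least 1 in size. Smaller differences that changed sign are among the 94 or the 71. All 3 arose with ChIP tags per kb as a share of the list, at 1.29 (Ski 60.0 kb) and 0.81 (Ski 59.0 kb) for SMAD2/3 against HEB in ESCs and -0.24 (Skil) for SMAD2/3 in Endoderm against ESC. This scale divides by list totals that differ, by construction. In the upper 50% of each list by ChIP height, member regions numbered 6 in Endoderm SMAD2/3, 2 in Endoderm+SB HEB and 3 in Endoderm HEB, with 2 member genes in each of these HEB lists. Endoderm SMAD2/3 regions overlapping Endoderm HEB numbered 2, and the reverse 2. Between Endoderm+SB HEB and Endoderm HEB 0 remained in either direction, between Endoderm HEB and ESC HEB 3 in either direction, and between ESC+SB HEB and ESC HEB 6. Of the 35 pathway genes 11 had an Endoderm SMAD2/3 region, 10 an Endoderm+SB HEB region and 10 an ESC HEB region. At a common lowest height of 28, 2 overlaps between Endoderm+SB HEB and Endoderm HEB were left in either direction, the Skil (26.3) and Ski 48.9 kb (27.9) regions with SB431542 lying under it. With lists of equal length (4111) by height, member regions numbered 4 in Endoderm SMAD2/3, 1 in Endoderm+SB HEB, 3 in Endoderm HEB, 6 in ESC+SB HEB and 5 in ESC HEB. Member genes numbered 1 in Endoderm+SB HEB, 2 in Endoderm HEB and 1 in ESC HEB. The overlaps were 2 for SMAD2/3 and HEB in Endoderm, 5 in ESC, 3 for Endoderm SMAD2/3 with ESC SMAD2/3, 2 for HEB in Endoderm and ESC, 0 for HEB with and without SB431542 in Endoderm and 4 in ESC. Pathway genes numbered 8 in Endoderm SMAD2/3, 9 in Endoderm+SB HEB, 11 in Endoderm HEB, 9 in ESC+SB HEB and 9 in ESC HEB. With equal length by enrichment, member regions numbered 4 in Endoderm SMAD2/3, 3 in Endoderm+SB HEB, 3 in Endoderm HEB, 4 in ESC+SB HEB and 3 in ESC HEB, and member genes 2 in Endoderm HEB, 2 in ESC+SB HEB and 1 in ESC HEB. The overlaps were 2 for SMAD2/3 and HEB in Endoderm, 3 in ESC, 3 for Endoderm SMAD2/3 with ESC SMAD2/3, 2 for HEB in Endoderm and ESC, 1 for HEB with and without SB431542 in Endoderm and 3 in ESC. Pathway genes numbered 6 in Endoderm SMAD2/3, 11 in Endoderm+SB HEB, 12 in Endoderm HEB, 10 in ESC+SB HEB and 9 in ESC HEB. These alternatives hold fewer regions by construction. With a reciprocal overlap of 50%, 4 Endoderm SMAD2/3 regions overlapped Endoderm HEB. Counting all regions within 20 kb, member regions numbered 17 in ESC SMAD2/3, 13 in Endoderm HEB, 17 in ESC+SB HEB and 25 in ESC HEB. The overlaps were then 16 for ESC SMAD2/3 with ESC HEB and 15 in reverse, 17 for ESC+SB HEB with ESC HEB and 18 in reverse, and 11 for ESC HEB with Endoderm HEB. Low tag numbers limit the ratios at Tgif1, where 2 regions held 2 and 3 input tags.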
